A study of Rattus with 6 samples.

Results

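Map2 and 5 other genes best known from synapses, cell junctions and their signalling, Dlg4, Cdh2, Ptk2b, P2rx2 and Ppp2r2b, were measured in rat heart by mRNA probes on a circular RNA array. They are 6 of the 38 genes that the mRNA probes of the array could be matched to. Map2 was taken because it was the 1 mRNA probe called lower after ischemia-reperfusion in the same arrays, and the other 5 were taken by their function from the mRNA probes above background on every array. The members were thus chosen by the measured difference between the groups, for Map2, and by the level against background, so all differences between the groups below are descriptions without a test. The hearts came from 6 male SD rats. In 3 of them the left anterior descending coronary artery (LAD) was ligated for 40 min and then reperfused for 2 h, and 3 control rats had the thread placed at the same position without ligation, with the same 2 h. All 6 are rats of 1 strain and 1 sex with no genetic change named, each on an array of its own. The label of the tissue is myocardial, and the sources used here do not say whether the sampled piece came from the ischemic zone.

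Map2 protein binds along microtubules and stabilizes them, and it is best known from the dendrites of neurons. Dlg4 encodes a scaffold with PDZ domains that anchors receptors and channels at the postsynaptic side of excitatory synapses. Cdh2 encodes N-cadherin, the calcium-dependent adhesion protein that joins cardiomyocytes end to end at the intercalated disc and also joins the membranes of synapses. Ptk2b encodes a calcium-responsive tyrosine kinase related to focal adhesion kinase. P2rx2 encodes a cation channel opened by extracellular ATP, and Ppp2r2b a regulatory subunit that directs a serine/threonine phosphatase to its substrates. A piece of heart holds cardiomyocytes, nerve fibres and other cells, and RNA from the whole piece does not separate them.

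None of 47 marker genes for cardiomyocytes, neurons, Schwann cells, fibroblasts, endothelium, smooth muscle, leukocytes and red cells had a probe matched by name. The labelled tissue and its cell makeup were therefore not tested, and fewer cells of a type cannot be told apart from less RNA per cell. Of 106 genes in 6 lists of related genes, covering microtubule proteins, postsynaptic proteins, intercalated disc proteins, focal adhesion kinases, ATP receptors and phosphatase subunits, 6 had a matched probe, and these were the 6 members themselves. The 23 mRNA probes without a matched gene and the circular RNA probes, which carry an ID only, were not searched for these genes. Total RNA was labelled with random primers, and whether linear RNA was removed first is not given. A probe signal may thus come from linear or circular transcripts that hold its target, and the place of each probe within its transcript was not used here.

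Each of the 6 genes had 1 probe, printed as 10 repeat spots on every array, with the transcripts NM_013066 for Map2, NM_019621 for Dlg4, NM_031333 for Cdh2, NM_017318 for Ptk2b, NM_053656 for P2rx2 and NM_022209 for Ppp2r2b. All 360 spots were well above background by the scanner software, 0 were saturated, and 12 were flagged as outliers and left out. The probes were nonetheless dim. Their intensity per array, the geometric mean of the unflagged spots after background subtraction, ran from 10.9 to 45.3 scanner units. The 75th percentile of the circular RNA probes was 64.4 to 102 units, and the brightest spot of the negative control probe was 1.06 to 1.97 units on the 6 arrays. Before subtraction, the median pixel brightness of the members was 26.5 to 61.5 units over a local background of 11.5 to 13.0 units. Repeat spots of a member on 1 array had an SD of 0.11 on the log2 scale at the median and of 0.35 at most. Normalized values below are log2 intensities minus the array's 75th percentile of circular RNA probes, so that 0 is that percentile and negative values are dimmer.

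Map2, which encodes the microtubule-binding protein of the set, gave a lower signal in all 3 hearts after ischemia-reperfusion than in any control heart. Its intensity was 16.9, 13.9 and 22.1 units after ischemia-reperfusion in replicates 1 to 3. In control replicates 1 to 3 it was 30.9, 31.3 and 25.0 units. The groups did not overlap even before scaling, and the closest pair was ischemia-reperfusion replicate 3 and control replicate 3. On the normalized scale Map2 was the 1 member of 6 without overlap, a pattern with lower values after ischemia-reperfusion that 18.6% of the 43 tested mRNA probes had. The groups also did not overlap in the median pixel brightness before background subtraction, at 34.3, 29.0 and 38.0 units against 50.5, 49.5 and 42.0 units.

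On the normalized scale Map2 had -2.33, -2.21 and -2.21 after ischemia-reperfusion and -1.62, -1.53 and -1.50 in controls. The ischemia-reperfusion mean was -2.25 ± 0.07 and the control mean -1.55 ± 0.06 (SD, n = 3 each), a log2 difference of -0.70 (SE 0.14), or 1.63-fold lower. A gap of 0.59 log2 units separated the highest ischemia-reperfusion value from the lowest control value. The 29 unflagged spots after ischemia-reperfusion all lay below all 30 control spots on this scale, and at each of the 9 spot positions without a flag on any array the 3 ischemia-reperfusion values lay below the 3 control values. Repeat spots are technical repeats of 6 rats, so they show how precisely each array read this probe and not how rats vary.

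**Figure D1:**
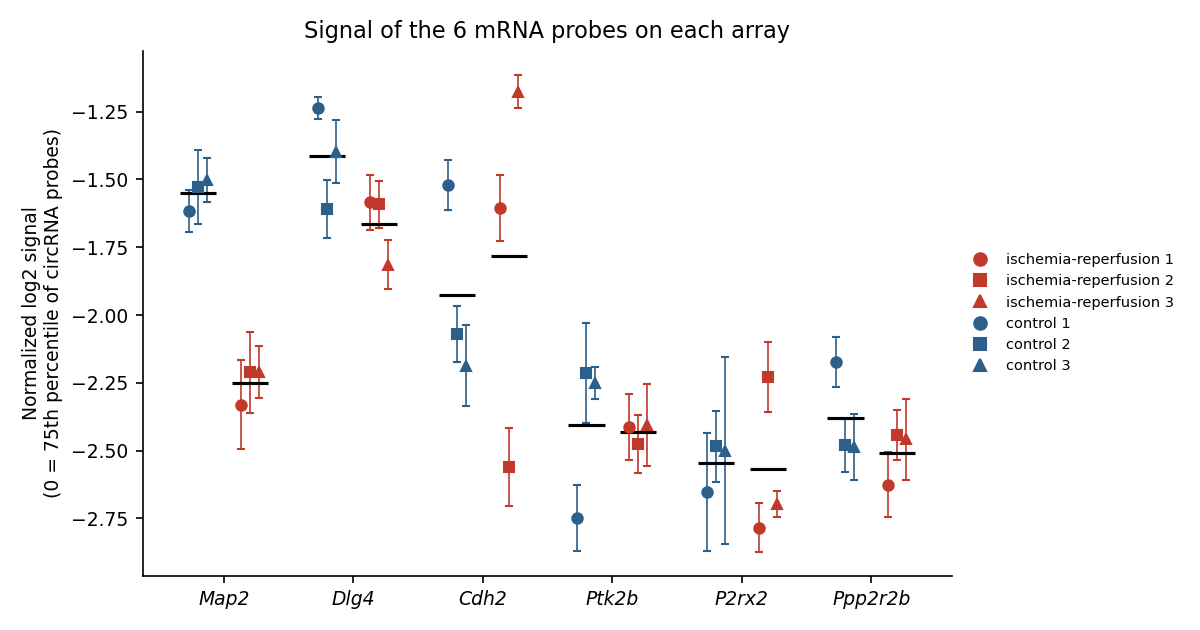
Normalized log2 signal of the 6 mRNA probes (y axis; 0 is the array's 75th percentile of circular RNA probes) on each of the 6 arrays, with controls in blue and ischemia-reperfusion in red; bars on points are the SD over repeat spots and black lines are group means. Map2 separates into -2.33 to -2.21 after ischemia-reperfusion and -1.62 to -1.50 in controls, whereas the groups overlap for the other 5 genes and Cdh2 is widely spread.

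The arrays of each group were close to each other in Map2. The within-group SD over both groups was 0.06, the lowest of the 43 mRNA probes tested, whose median was 0.22 and highest 0.75. The median SD between single Map2 spots on 1 array was 0.12. That value is not comparable, because each array value is a mean of its spots, with an SE of 0.05 at most. The small within-group SD entered the moderated test by which Map2 was chosen and is no separate evidence. In that test, limma over the 43 mRNA probes above background, 1 probe was called lower, which is 2.33% of those tested and is Map2 itself, and 0 were called higher, with 9 at an unadjusted p under 0.05. With the replicate number as a block 0 probes were called. The Map2 difference is -0.70 there by construction, since each replicate number holds 1 array of each group. The probe next in order, just outside the threshold, was Cyp2e1, a cytochrome enzyme, whose control mean was -2.29 ± 0.28 and whose ischemia-reperfusion mean was -3.08 ± 0.09 (SD, n = 3 each).

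Other probes were lower on the same arrays as Map2. Over the 43 tested mRNA probes 33 had negative and 10 positive differences, with a median of -0.25. Groups without overlap were seen with lower values after ischemia-reperfusion in 8 probes, Map2 included, and in either direction in 20.9% of the probes. Probes for adenoviral E1A serve as array controls, and whether RNA for them was added is not given, so their signal may or may not be nonspecific. They had a median normalized signal of -2.97, -3.07 and -3.46 on ischemia-reperfusion arrays 1 to 3. On control arrays 1 to 3 it was -2.04, -2.83 and -2.94, so that the groups did not overlap there either. The E1A difference was -0.56, and -0.28 without control replicate 1. Map2 stood above E1A by 0.64, 0.86 and 1.25 log2 units on the ischemia-reperfusion arrays and by 0.43, 1.30 and 1.44 on the control arrays. These gaps overlapped between the groups, with a difference of -0.14, and of -0.45 without control replicate 1. The gaps of the other 5 members to E1A overlapped too, with differences of 0.31 for Dlg4, 0.71 for Cdh2, 0.54 for Ptk2b, 0.54 for P2rx2 and 0.43 for Ppp2r2b. On control array 1 Ptk2b, P2rx2 and Ppp2r2b lay below E1A, at -0.71, -0.61 and -0.13, and without that array the 5 differences were 0.12, 0.63, 0.08, 0.20 and 0.26. The part of the signal that E1A and Map2 share in the Map2 difference was not tested.

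**Figure D2:**
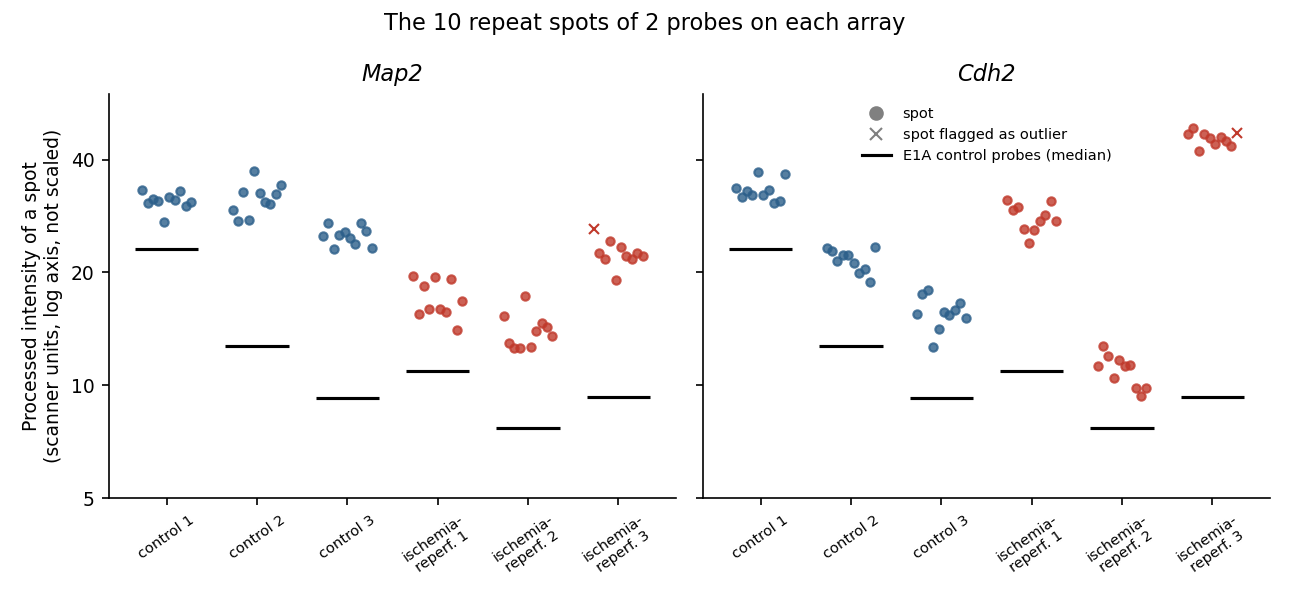
Processed intensity of the 10 repeat spots (y axis, scanner units, log axis, not scaled between arrays) of the Map2 and Cdh2 probes on each array, with controls in blue and ischemia-reperfusion in red; crosses are spots flagged as outliers and black lines the median of the E1A control probes. Spots of 1 array lie close together, Map2 is brighter on the 3 control arrays, and Cdh2 differs most between ischemia-reperfusion arrays 2 and 3, at 10.9 and 45.3 units.

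A comparison of Map2 with the other members on the same array needs no scaling between arrays, since any factor common to an array's probes cancels. The height of such a gap depends on both probes and has no meaning by itself, so only its change between arrays is described. Against the mean of the other 5 probes, Map2 stood at -0.13, 0.05 and -0.10 log2 units after ischemia-reperfusion and at 0.45, 0.64 and 0.66 in controls. The gap was -0.06 ± 0.10 against 0.59 ± 0.12 (SD, n = 3 each), a difference of -0.65 without overlap. It was -0.71 without control replicate 1 and -0.51 against control replicate 1 alone. Its size depends on the reference, since the other 5 members had a median difference of -0.03 and the 43 tested mRNA probes a median of -0.25. Against E1A on the same arrays the Map2 difference was -0.14 with overlap, and -0.45 without control replicate 1. How many of all probes separate in such a gap was not computed. On their own, 18.6% had lower values after ischemia-reperfusion without overlap.

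Taken 1 by 1, the gap of Map2 to Ptk2b differed by -0.68 between the groups, to P2rx2 by -0.68 and to Ppp2r2b by -0.57. In these 3 pairs the groups did not overlap, and how many of all probes separate in such pairs was not computed. The gap to Dlg4 differed by -0.45, also without overlap. Its groups nearly touched, at -0.40 on ischemia-reperfusion array 3 and -0.38 on control array 1. The gap to Cdh2 differed by -0.85 with overlap, and had the widest spread, with an SD of 0.73 after ischemia-reperfusion. All 5 gaps contain the Map2 values that chose the gene, so they show only an unequal difference between Map2 and the other 5 probes.

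**Figure D3:**
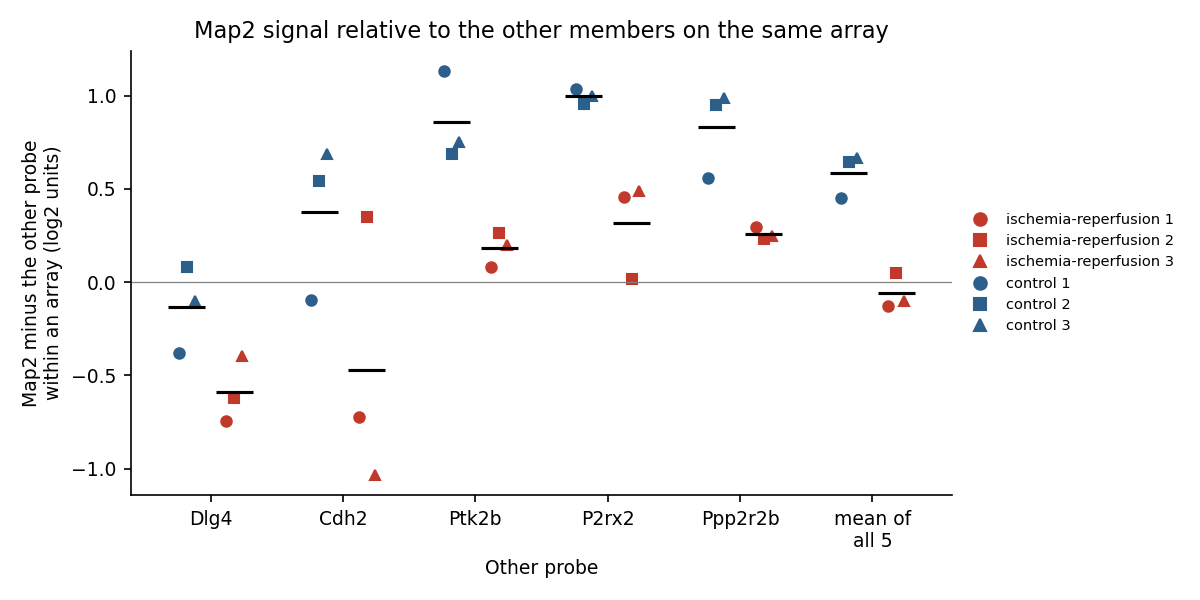
Map2 signal minus the signal of each other member on the same array (y axis, log2 units) for Dlg4, Cdh2, Ptk2b, P2rx2, Ppp2r2b and the mean of all 5, with 1 point per array and black lines for group means. Against the mean of all 5, the ischemia-reperfusion arrays lie between -0.13 and 0.05 and the controls between 0.45 and 0.66; the groups overlap for Cdh2.

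Dlg4, which encodes the postsynaptic scaffold, overlapped in signal between the groups. Its intensity was 28.4, 21.4 and 29.1 units after ischemia-reperfusion and 40.3, 29.6 and 26.9 units in controls. Control replicate 1 stood above the other 5 arrays, and no separation of the groups was seen among those 5. Normalized values were -1.58, -1.59 and -1.81 against -1.24, -1.61 and -1.40. The mean was -1.66 ± 0.13 against -1.41 ± 0.19 (SD, n = 3 each), a log2 difference of -0.25 (SE 0.17). The difference was -0.16 without control replicate 1.

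Cdh2, which encodes the adhesion protein of the intercalated disc, varied more in signal between arrays of a group than between groups. Its intensity was 28.0, 10.9 and 45.3 units after ischemia-reperfusion and 33.0, 21.5 and 15.6 units in controls. The lowest and the highest array of all 6 were both ischemia-reperfusion arrays, replicates 2 and 3, and they differed by 4.15-fold before scaling and by 2.61-fold after it. Repeat spots agreed closely on each array, with SDs of 0.06 to 0.15 on the log2 scale. The SD between arrays of a group was 0.56, and the SE of an array's spot mean was 0.05 at most. Only 3 of the 43 tested mRNA probes had a higher SD between arrays. Each rat had 1 array, so variation between rats cannot be told apart from variation between arrays.

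The normalized Cdh2 values were -1.61, -2.56 and -1.18 after ischemia-reperfusion and -1.52, -2.07 and -2.19 in controls, or -1.78 ± 0.71 against -1.93 ± 0.35 (SD, n = 3 each). The difference was 0.15 (SE 0.35), and leaving out 1 array could change its sign. It was -0.16 without ischemia-reperfusion replicate 3, the only array whose removal made it negative. It was 0.54 without replicate 2 of that group and 0.35 without control replicate 1. A difference between groups was not detectable against this spread.

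Ptk2b, which encodes the calcium-responsive kinase, had nearly equal group means. Its intensity was 16.0, 11.6 and 19.3 units after ischemia-reperfusion and 14.1, 19.5 and 14.9 units in controls. The 3 ischemia-reperfusion values on the normalized scale, -2.41, -2.48 and -2.41, lay inside the control range of -2.75, -2.21 and -2.25. The mean was -2.43 ± 0.04 against -2.40 ± 0.30 (SD, n = 3 each), with a difference of -0.03 (SE 0.18). Of the 60 Ptk2b spots over all arrays 5 were flagged, more than for any other member. These included 2 on control replicate 1 and 2 on ischemia-reperfusion replicate 2. Control replicate 1 was the lowest of the 6 arrays for this probe. Without that array the difference was -0.20, and against that array alone 0.32.

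P2rx2, which encodes the ATP-gated channel, also showed no separation. Its intensity was 12.4, 13.8 and 15.8 units after ischemia-reperfusion and 15.1, 16.2 and 12.5 units in controls, the narrowest range among the 6 genes at 1.31-fold before scaling. Normalized values were -2.78, -2.23 and -2.70 against -2.65, -2.48 and -2.50, so that ischemia-reperfusion replicate 2 was the highest array and the other two of that group were the lowest. The mean was -2.57 ± 0.30 against -2.55 ± 0.09 (SD, n = 3 each), with a difference of -0.02 (SE 0.19). It was -0.20 without ischemia-reperfusion replicate 2 and 0.08 without replicate 1 of that group, so its sign depended on single arrays. Repeat spots of P2rx2 spread most on control replicate 3, from 8.95 to 17.6 units with an SD of 0.35 on the log2 scale. The SE of the mean of these spots was 0.11, against an SD between arrays of a group of 0.22. This probe was therefore read with less precision there than the other members.

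Ppp2r2b, which encodes the phosphatase subunit, had 13.8, 11.9 and 18.6 units after ischemia-reperfusion and 21.0, 16.2 and 12.6 units in controls. Normalized values were -2.63, -2.44 and -2.46 against -2.17, -2.48 and -2.49. Control replicate 1 was again above the rest, and the other 5 arrays lay between -2.63 and -2.44. The mean was -2.51 ± 0.10 against -2.38 ± 0.18 (SD, n = 3 each), with a difference of -0.13 (SE 0.16), which was -0.03 without control replicate 1.

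For the 5 genes other than Map2, 4 differences were negative and 1 positive, with a median of -0.03, and the signs of several depended on the scaling. With quantile scaling the differences were 0.25 for Ptk2b, 0.21 for P2rx2 and 0.05 for Ppp2r2b, and with cyclic loess 0.12, 0.15 and 0.02. Dlg4 stayed negative in all 16 settings compared, between -0.43 and -0.09. Map2 stayed negative in the same 16, between -0.74 and -0.20. The replicate block among these settings cannot change a difference in this balanced design. Since the Map2 groups did not overlap, its negative sign was also fixed in advance without scaling, with the slide row as a block and in fits on 5 arrays. The Map2 value nearest to 0 came from normexp, which was run from median pixel brightness and local background. It adds 50 units before the log, more than the background-subtracted Map2 signal, and the part of this offset was not tested. Without that setting the Map2 range was -0.74 to -0.58. The median shift of all tested circular RNA probes was -0.11 in the reported scaling, -0.14 without scaling and -0.01 with quantile scaling or cyclic loess.

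**Figure D4:**
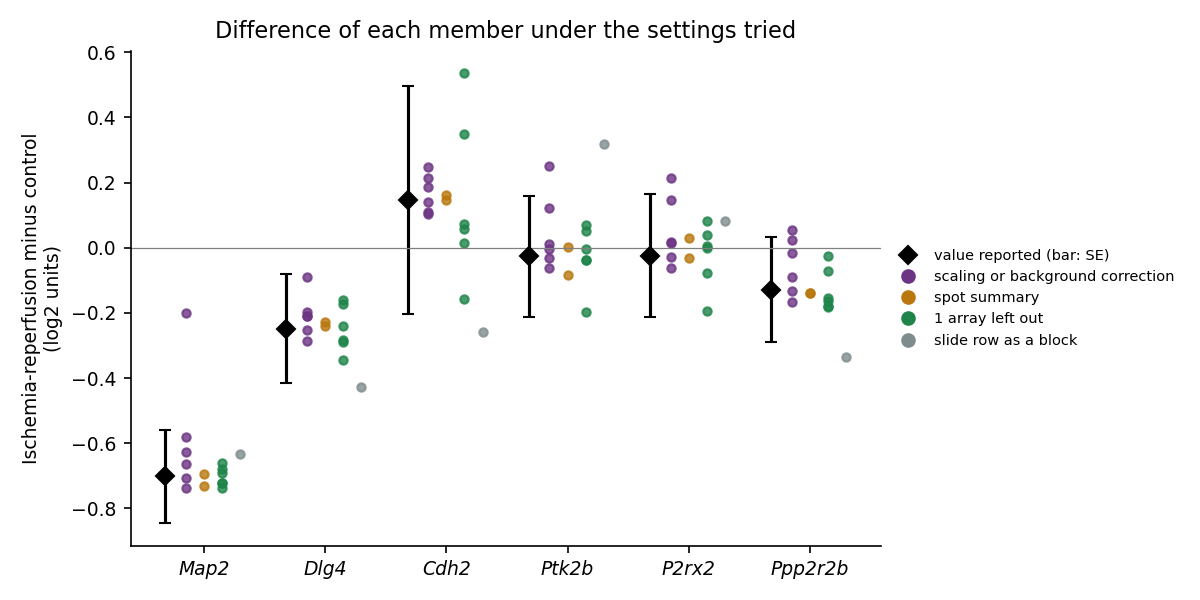
Ischemia-reperfusion minus control (y axis, log2 units) for each gene as reported (black diamond, bar SE) and under other settings, with purple for another scaling or background correction, orange for another spot summary, green for 1 array left out and grey for the slide row as a block. Map2 lies between -0.74 and -0.58 except for -0.20 with normexp, and the values of Cdh2, Ptk2b, P2rx2 and Ppp2r2b fall on both sides of 0.

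The differences were also taken against the controls of each slide row. Row 1 of the slide held all 3 ischemia-reperfusion arrays with control replicate 1, and row 2 held the remaining 2 controls. Against control replicate 1, the 1 control in the same row, Map2 had -0.63, Dlg4 -0.43, Cdh2 -0.26, Ptk2b 0.32, P2rx2 0.08 and Ppp2r2b -0.34. Against the 2 controls in row 2, Map2 had -0.74, Dlg4 -0.16, Cdh2 0.35, Ptk2b -0.20, P2rx2 -0.08 and Ppp2r2b -0.03. Thus Cdh2, Ptk2b and P2rx2 changed sign between the 2 sets of controls, and Map2, Dlg4 and Ppp2r2b were negative against both. The first set rests on 1 control array and equals the fit with the slide row as a block. The second set equals the fit without control replicate 1, so neither is a separate check.

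The likeness of profiles was described over the 6 arrays by centring each probe on its own mean and averaging the absolute differences between 2 probes. The comparison covered the 25 probes with a gene name that were above background on all 6 arrays, which share hybridization and scaling. Closest to Map2 were Pop7, a subunit of ribonuclease P, at 0.11 log2 units, Cyp2e1 at 0.12 and Sdha, a subunit of succinate dehydrogenase, at 0.14. The probe farthest from Map2 was Cdh2, at 0.57. Cdh2 was also farthest from Ptk2b, at 0.52, and from P2rx2, at 0.57, and this distance grows with a probe's own spread. None of the 3 probes closest to Map2 was a member, and all 3 had lower means after ischemia-reperfusion, at -0.53, -0.79 and -0.56. Map2 was chosen by its group difference, which makes up most of its centred profile. Probes near it therefore share its direction by construction, and this is no separate evidence.

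The other members resembled different probes. Dlg4 and Ppp2r2b were closest to each other among the 15 pairs of members, at 0.12, and both were highest in control replicate 1. P2rx2 was closest to Med16, a subunit of the Mediator complex, at 0.09, and Ptk2b to the same gene at 0.16. Ppp2r2b was closest to Rpl13a, a ribosomal protein, at 0.10. Cdh2, with its wide spread between arrays, had no near neighbour by this unscaled distance. Its closest was Ndfip1, an adaptor of ubiquitin ligases, at 0.25.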

How the data were processed

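Each of the 6 samples had 1 scanner table of spot intensities on a linear scale, made with Agilent Feature Extraction 11.0.1.1 in a 1-colour protocol, per the file headers. The processed intensity deposited by the authors had been background-subtracted and spatially detrended by the same software, per the file headers; arrays were not scaled to each other. All arrays came from 1 scan of 1 slide. The design names the rn4 build, and RefSeq accessions were matched to symbols in a table of assembly GRCr8, for names only (39 of 62 mRNA probes). Groups came from the treatment label, since the source label reads ischemia-reperfusion for all 6. The arrays' number limits the precision.

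Spots flagged as outliers were left out, log2 processed intensities of a probe's spots were averaged, and the array's 75th percentile of 14145 circular RNA probes was subtracted. A probe counted as above background with over 50% of its spots well above background, and 43 mRNA probes that were so on all 3 arrays of a group entered limma 3.58.1 (R 4.3.3, two-sided, Benjamini-Hochberg, threshold 0.05). SEs are limma's moderated ones. The script was tested on simulated data. Figures were drawn with matplotlib 3.10.9.

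The members, gene lists and tests were chosen with earlier results of these data known. The rule for named genes took the 6 members, the 3 probes nearest in profile to each, and every listed gene with a probe. Same-numbered arrays of the groups deviated together at r = 0.60, 0.29 and 0.19 over 12960 circular RNA probes, all above 0.1, so the replicate number was also tried as a block. The design text describes separate rats.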

Additional observations from a re-analysis of the deposited data

How the results depend on the processing

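The Map2 difference of -0.70 was negative in all 16 settings compared. It was -0.58 with quantile scaling, -0.63 with cyclic loess, -0.63 with the slide row as a block, -0.20 with normexp, and -0.74 to -0.66 when 1 array was left out. With the replicate block it was -0.70, which the balanced design fixes in advance. Since the groups did not overlap, the negative sign was also fixed in advance without scaling, with the slide row as a block and in fits on 5 arrays. Every difference with the slide row as a block rests on control replicate 1 as its only control. The call itself was less stable, and Map2 was called in 7 of the 20 other limma fits. Against 1 probe called in the reported fit, 0 were called without scaling, with median scaling, quantile scaling, cyclic loess, normexp, the replicate block or the slide row as a block, with all 62 mRNA probes tested, and with mRNA and circular RNA probes together. It was 2 with the percentile over circular RNAs detected on all arrays, with outlier spots kept and among probes detected on all 6 arrays, 9 with array quality weights, and 0 to 5 in fits on 5 arrays, with 5 without ischemia-reperfusion replicate 3 or control replicate 1. In the 13 fits with 0 calls, 3 to 9 probes had an unadjusted limma p under 0.05.

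The Map2 difference against the mean of the other 5 members was -0.65. It was -0.20 with normexp, -0.51 with the slide row as a block and -0.71 to -0.61 in fits on 5 arrays. Against E1A in place of these members it was -0.14 with overlap. The median difference of the other 5 members was -0.03. It was -0.064 without scaling, 0.012 with median scaling, 0.21 with quantile scaling, 0.12 with cyclic loess, -0.083 with the median of spots, -0.26 with the slide row as a block and -0.16 to 0.0065 in fits on 5 arrays. The cause of these changes was not tested. The median SD of repeat spots was 0.11, and 0.12 with outlier spots kept. The members were dim, at 10.9 to 45.3 units, and whether this limits how small a difference could be read was not tested.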
